A study of Mus musculus with 6 samples.

Results

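The genes described here are 10 members of the Notch pathway, taken by their symbols from a table of 17554 genes measured by bulk RNA-seq in mouse corneal epithelium. They are the receptors *Notch1*, *Notch2* and *Notch3*, the ligands *Jag1*, *Jag2* and *Dll1*, the nuclear factor *Rbpj*, the inhibitor *Numb*, and the target genes *Hes1* and *Hey1*. The corneal epithelial layer of 3 control mice (genotype WT in the labels) was compared with that of 3 *Krt14-Cre; Rela f/f* mice (Rela-/- in the labels, mutant mice below). All mice were of the C57BL/6 strain and 2 months old, and each genotype gave 3 independent samples. The sources used here do not say which alleles the control mice carried. The keratin 14 promoter drives the Cre recombinase in basal cells of stratified epithelia, the limbus, conjunctiva and skin included, and Cre removes a floxed part of *Rela*, which encodes a subunit of the transcription factor NF-κB. The comparison asks how the Notch genes were expressed in a corneal epithelium without RelA. In bulk samples, fewer cells of a type and less RNA per cell cannot be told apart.

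Notch receptors sit in the membrane of a cell and are switched on by ligands of the Jagged and Delta-like families on a neighbouring cell. Ligand binding lets a sheddase and then gamma-secretase cut the receptor, and the freed intracellular part enters the nucleus, joins the DNA-binding protein RBPJ and turns on genes such as *Hes1* and *Hey1*, which encode transcriptional repressors. In stratified epithelia Notch signaling is known for its part in the exit from the basal layer and in differentiation, and in the mouse cornea loss of *Notch1* is known to lead to skin-like metaplasia.

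Of the members, *Dll1* rose in the mutant samples, and no member fell at an adjusted p under 0.05. The level of *Hes1*, the most abundant member, differed by less than the spread between samples, and *Hey1* was not detectable at this depth. Expected counts, which are estimated read counts per gene, were compared by the quasi-likelihood test of edgeR, and p-values were adjusted by the Benjamini-Hochberg method over 12667 genes that passed a filter on low counts. Levels are given in FPKM, a unit that corrects for transcript length and for sequencing depth. Of the 10 members, 9 passed the filter, 1 was called higher and 0 were called lower (1 and 1 by DESeq2, 1 and 0 by limma), where 13.2% of all tested genes were called, 7.82% as higher and 5.42% as lower. An unadjusted p under 0.05 was reached by 4 of the 9 members, and by 3565 of the 12666 distinct gene symbols tested. The median log2 fold change was -0.08 over the 9 members and -0.0028 over all tested genes. There were 8 negative values and 1 positive value among the members, against 6387 and 6279 among the tested symbols. At the thresholds of the study (adjusted p no larger than 0.001 together with a change of 2-fold or more), 0 members were called, against 1.37% of the tested genes.

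The upstream DNA of *Dll1*, the member that was called, and of *Rbpj*, whose product binds DNA in this pathway, is shown from RefSeq promoters of GRCm38.p6, 5′ to 3′ on the strand of the gene. Each stretch starts 250 bases before an annotated start site and ends where an exon of the same gene or the start site begins. Capitals mark the RBPJ core motif TGGGAA, on either strand, and the *Dll1* stretches hold no capitals. The first *Dll1* stretch (chr17:15375977-15376073, minus strand) lies before the start site at 15375823, the second (chr17:15376933-15377182, minus strand) before the start site at 15376932, and the *Rbpj* stretch (chr5:53590096-53590213, plus strand) before the start site at 53590346.
Dll1, first start site: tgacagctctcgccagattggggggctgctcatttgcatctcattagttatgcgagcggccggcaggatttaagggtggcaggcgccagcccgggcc
Dll1, second start site: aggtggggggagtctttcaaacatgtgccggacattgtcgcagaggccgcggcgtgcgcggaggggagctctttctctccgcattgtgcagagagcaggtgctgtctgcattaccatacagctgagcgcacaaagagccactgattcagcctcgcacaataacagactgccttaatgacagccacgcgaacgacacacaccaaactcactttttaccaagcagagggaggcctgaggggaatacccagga
Rbpj: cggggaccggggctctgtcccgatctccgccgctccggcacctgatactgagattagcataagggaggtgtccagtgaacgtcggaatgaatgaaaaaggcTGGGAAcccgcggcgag

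RefSeq windows of 250 bases before a start site were found for 8 members, 12 windows in all, and *Hes1* and *Hey1* had none. The RBPJ core TGGGAA, searched on both strands as were all motifs here, was in 2 of the 12 windows, both of *Rbpj* and overlapping each other, while 21.6% of 32851 windows of all genes held it. In the first *Rbpj* window it lay at -149 to -144 from the start site and again, on the other strand, at -65 to -60. The longer RBPJ site CGTGGGAA, which contains that core, was in 0 of the 12 windows (0.636% of all windows), as were GGGNNTTTC, the start of a common κB site (3.72%), and the E box CACGTG (6.02%). The N box CACNAG, which Hes proteins are known to bind, was in 4 of the 12 windows, 1 each of *Notch1*, *Notch2*, *Numb* and *Notch3* (36.7% of all windows). No match of the N box overlapped one of another motif, and these matches describe letters in a window and not binding.

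*Rela* was low in each mutant sample, at 4.93, 5.53 and 5.72 FPKM against 36.5, 34.7 and 33.4 FPKM in the controls. Its log2 fold change was -2.75 (standard error 0.085, edgeR adjusted p = 5.5e-07). Expected counts totalled 19492942 to 19733834 per sample. At these totals 3 counts equal 0.152 to 0.154 CPM, taken as the limit that a count of 0 allows, which covers counting error only. The summed FPKM of 6 corneal epithelial markers (*Krt12*, *Krt5*, *Krt14*, *Pax6*, *Aldh3a1* and *Tkt*) was 45648 to 49730 in control and 41940 to 45695 in mutant samples, and 2 of the 6 were called, *Krt14* with a log2 fold change of 3.32 and *Aldh3a1* with -0.25. Stromal keratocyte markers summed to 0.14 to 0.24 FPKM in control and 0.70 to 3.32 in mutant samples. Of these 6 genes 1 passed the filter and rose (*Dcn*, log2 fold change 4.17), and the defining marker *Kera* was at 3 or fewer counts in each sample. *Col1a1* had 1, 1 and 2 expected counts in control and 23, 23 and 6 in mutant samples, and *Vim* 1, 0 and 2 and 19, 9 and 9. *Lum* had 0, 1 and 0 in control and 23, 10 and 0 in mutant samples, and *Col1a2* 5, 0 and 1 and 20, 11 and 1. Mural cell markers summed to 0.33 to 0.51 and 0.96 to 1.26 FPKM, with *Acta2* higher (log2 fold change 1.32) and *Pdgfrb* at 3 or fewer counts. Conjunctival markers summed to 1362 to 1595 and 1074 to 1191 FPKM, with *Krt13* lower (log2 fold change -0.45) and the goblet cell mucin *Muc5ac* at 3 or fewer counts. Leukocyte markers summed to 63.9 to 67.3 and 51.3 to 96.1 FPKM, nearly all of it from *Itgam*, the gene of this list that was tested, and it was not called. *Ptprc*, the common leukocyte marker, was at 0.01 to 0.15 FPKM. *Lyz2* did not pass the filter, with 0, 0 and 1 expected counts in control and 23.7, 13 and 3.79 in mutant samples. *Itgam*, *Ptprc*, *Adgre1* and *Cd3e* overlapped between genotypes. Blood vessel endothelium summed to 0.03 to 0.12 and 0.14 to 0.24 FPKM, and none of its genes passed the filter. *Cdh5*, *Kdr* and *Tek* were at 3 or fewer counts, and *Pecam1* had 2, 2 and 5 expected counts in control and 8, 7 and 14 in mutant samples. The other lists had 0 genes called. Epidermis summed to 5.94 to 6.77 and 4.99 to 6.31 FPKM, melanocyte to 4.29 to 4.97 and 4.65 to 5.18, and Schwann cell to 0.82 to 1.03 and 0.76 to 1.02. The part of other cell types in the results below was not tested.

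**Figure D1:**
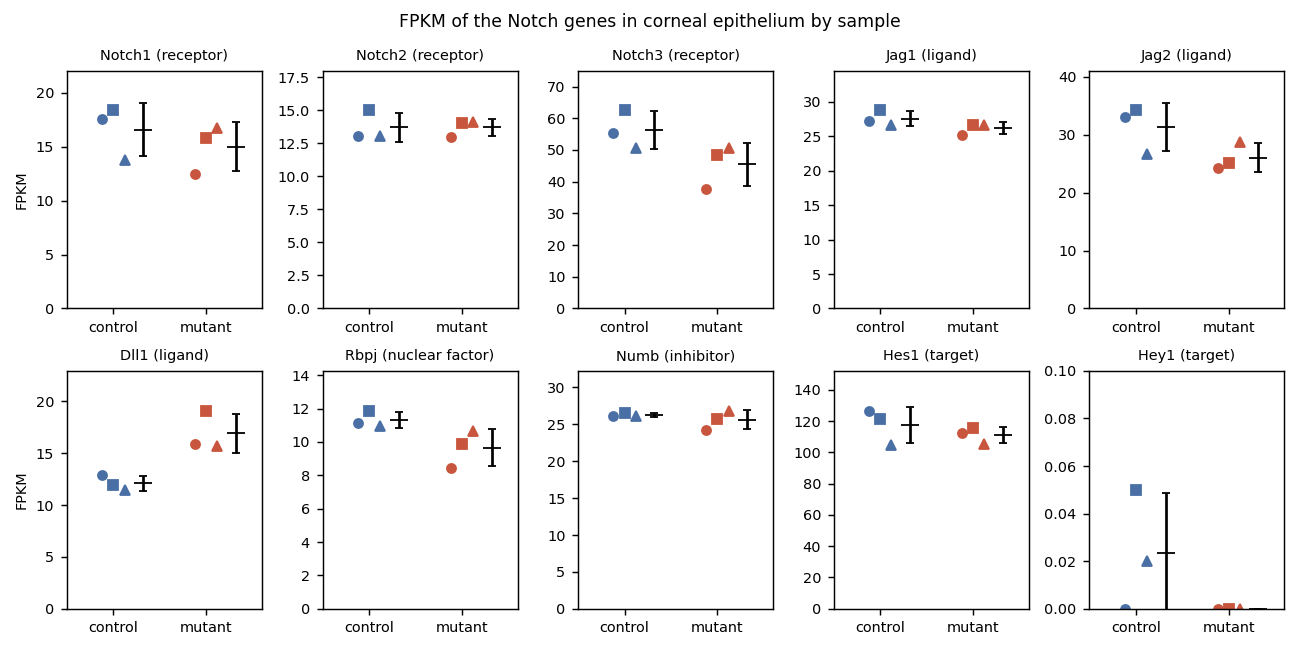
FPKM (y axis, linear, from 0) of the 10 Notch genes in each control and mutant sample. Circles, squares and triangles are samples 1, 2 and 3 of a genotype, and the bar beside them is the mean with its SD (n = 3). The 3 mutant samples of *Dll1*, at 15.7 to 19.1, lie above the 3 control samples, at 11.5 to 12.9, and *Hey1* is at or under 0.05 in each sample.

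In control epithelium the levels per transcript length fell in the order *Hes1*, *Notch3*, *Jag2*, *Jag1*, *Numb*, *Notch1*, *Notch2*, *Dll1*, *Rbpj* and *Hey1*. *Hes1* had a mean of 118 ± 11.4 FPKM (SD, n = 3), above that of 96.3% of the tested genes, and *Rbpj*, with 11.3 ± 0.488 FPKM, was above 58.3% of them. The ranges of *Jag2* and *Jag1*, of *Notch1* and *Notch2*, and of *Dll1* and *Rbpj* overlapped across samples. Within each control sample, though, *Notch1* stood above *Notch2* and *Dll1* above *Rbpj*. *Jag2* stood above *Jag1* in control samples 1 and 2 and was level with it in control sample 3. These orders were not tested. In the mutant epithelium *Dll1* stood before *Notch1* and *Notch2*, and the samples of *Jag1* and *Jag2*, of *Jag2* and *Numb*, of *Dll1* and *Notch1*, and of *Notch1* and *Notch2* overlapped.

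*Notch3* was the most abundant receptor transcript. *Notch3* (gene 18131, chromosome 17 of GRCm38 from 32120820 to 32166896) measured 55.4, 62.5 and 50.7 FPKM in control samples 1, 2 and 3 and 37.7, 48.3 and 50.5 FPKM in mutant samples 1, 2 and 3. Each mutant sample lay below each control sample, but mutant sample 3 reached almost the level of control sample 3. The mean was 56.2 ± 5.97 FPKM (SD, n = 3) in control and 45.5 ± 6.87 in mutant mice. The log2 fold change was -0.31 (standard error 0.115, 95% interval -0.56 to -0.05), with an unadjusted p of 0.0241 and an adjusted p of 0.112 in edgeR's quasi-likelihood test. With DESeq2 the adjusted p was 0.0478, and over the other alternatives it was not under 0.05.

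*Notch1* encodes the receptor that is best known in the cornea. *Notch1* (gene 18128, chromosome 2 from 26445599 to 26503822) measured 17.6, 18.4 and 13.8 FPKM in control samples 1, 2 and 3 and 12.5, 15.8 and 16.8 FPKM in mutant samples 1, 2 and 3. The groups overlapped: control sample 3 lay below mutant samples 2 and 3, and mutant sample 1 was the lowest of all. The mean was 16.6 ± 2.46 FPKM (SD, n = 3) in control and 15.003 ± 2.26 in mutant mice, and the log2 fold change was -0.15 (standard error 0.126, 95% interval -0.43 to 0.13, edgeR adjusted p = 0.489). The interval leaves room for changes of either sign. Exon bases of *Notch1* overlap genes on the other strand over 9.76% of their length in GENCODE M21, mainly the transcript 0610009E02Rik, and reads from them cannot be told apart because the sources used here do not state that counting used strand. The table gives *Notch1* the plus strand where GENCODE gives the minus strand, and its range starts at 26445599 where that of RefSeq starts at 26457902, so which transcripts were counted is not clear.

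*Notch2*, a receptor related to *Notch1*, had the lowest mean FPKM of the 3 receptors in both genotypes. *Notch2* (gene 18129, chromosome 3 from 97978923 to 98150367) measured 13.0, 15.01 and 13.1 FPKM in control samples 1, 2 and 3 and 13.0, 14.0 and 14.1 FPKM in mutant samples 1, 2 and 3. The groups overlapped, mutant sample 1 being level with control sample 1, and the means were 13.7 ± 1.13 and 13.7 ± 0.634 FPKM (SD, n = 3 each). Its log2 fold change in edgeR was -0.00064 (standard error 0.079, 95% interval -0.18 to 0.18, edgeR adjusted p = 0.996), and its sign turned with the scaling, so the data bound a change of *Notch2* in either direction without giving it a sign.

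The makeup of the receptor transcripts can be read from the plot of shares. *Notch3* made up 64.4%, 65.2% and 65.3% of the summed FPKM of the 3 receptors among the controls and 59.7%, 61.8% and 62.0% among the mutants. Its share was lower in each mutant sample than in each control sample, and that of *Notch2* was higher in each, with 15.1% to 16.9% in control and 17.4% to 20.6% in mutant samples. The share of *Notch1* overlapped, at 17.8% to 20.5% and 19.7% to 20.6%. The summed receptor FPKM was 86.5 ± 9.20 (SD, n = 3) in control and 74.2 ± 9.76 in mutant samples, and the groups overlapped. Shares were not tested, but the ratio of receptors within a sample, which does not depend on the scaling between samples, was. The log2 ratio of *Notch1* to *Notch3* was -1.77 ± 0.111 (SD, n = 3) in control and -1.60 ± 0.011 in mutant samples, higher in each mutant sample than in each control sample. The difference of 0.17 had an exact two-sided permutation p of 0.1, the smallest that 3 against 3 samples can give, and 0.3 after Benjamini-Hochberg adjustment over the 3 ratios tested. The log2 ratio of *Notch1* to *Notch2* was 0.27 ± 0.180 and 0.12 ± 0.160 (n = 3 each), with overlapping groups and an exact permutation p of 0.4, adjusted 0.4.

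*Dll1* encodes a Delta-like ligand and was the member that passed the test. *Dll1* (gene 13388, chromosome 17 from 15367354 to 15379475) measured 12.9, 11.95 and 11.5 FPKM in control samples 1, 2 and 3 and 15.9, 19.1 and 15.7 FPKM in mutant samples 1, 2 and 3. Each mutant sample lay above each control sample, as did the mutant samples of 17.5% of all tested genes, and mutant sample 2 was the highest. The mean rose from 12.1 ± 0.714 FPKM (SD, n = 3) to 16.9 ± 1.92, a fold change of 1.40. The difference on the log2 scale was 0.49 (standard error 0.096, 95% interval 0.27 to 0.70), with an adjusted p of 0.0096 by the Benjamini-Hochberg method in edgeR. Over the alternatives the log2 fold change ranged from 0.39 to 0.55, and the adjusted p from 0.00028 to 0.0526, the largest value coming without control sample 2, where *Dll1* was not called.

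The counted transcripts of *Dll1* carry a limit. In the table the range of *Dll1* ends at the same base, 15379475, as A930024N18Rik, a long intergenic noncoding RNA that GENCODE M21 places on the plus strand from 15375000, and the table gives *Dll1* the plus strand where GENCODE gives the minus strand. Exons of A930024N18Rik cover 20.5% of the exon bases of *Dll1*, and the second stretch of *Dll1* printed above lies inside one of them. Counting is not stated to use strand, so reads from this overlap cannot be told apart. The expected count divided by the FPKM of a gene follows the mean length of its counted transcripts, and for *Dll1* this length was 3546, 3497 and 3560 bases among the controls and 3558, 3542 and 3554 bases among the mutants, so the groups overlapped. GENCODE gives 3581 bases for the coding transcript and 3955 bases for A930024N18Rik. In each sample 70.6% to 71.4% of the genes used for calibration came within 5% of their annotated length. Exon bases overlapping genes on the other strand made up 6.03% for *Notch3* and 4.24% for *Numb*, and *Jag1*, *Jag2*, *Hes1* and *Hey1* had no such overlap with another gene.

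*Jag2* and *Jag1*, which encode the Jagged ligands, were the most abundant ligand transcripts. *Jag2* (gene 16450, chromosome 12 from 112907803 to 112929517) measured 33.1, 34.3 and 26.7 FPKM in control samples 1, 2 and 3 and 24.3, 25.1 and 28.9 FPKM in mutant samples 1, 2 and 3. Control sample 3 lay among the mutant samples, so the groups overlapped. edgeR gave a log2 fold change of -0.26 (standard error 0.1003, 95% interval -0.49 to -0.04), with an unadjusted p of 0.0267 and an edgeR adjusted p of 0.120. *Jag1* (gene 16449, chromosome 2 from 137081451 to 137116520) measured 27.2, 28.8 and 26.7 FPKM in control samples 1, 2 and 3 and 25.1, 26.7 and 26.6 FPKM in mutant samples 1, 2 and 3. Mutant sample 2 stood just above control sample 3, and the other mutant samples were lower than all controls. The log2 fold change of *Jag1* was -0.08 (standard error 0.068, 95% interval -0.24 to 0.07, edgeR adjusted p = 0.479).

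The share of *Dll1* in the summed FPKM of the 3 ligands was 17.6%, 15.9% and 17.7% among the controls and 24.3%, 27.0% and 22.0% among the mutants. The groups did not overlap, and the call of *Dll1* rests on the same reads. *Jag2* made up 41.1% to 45.7% of the ligand transcripts in control and 35.4% to 40.5% in mutant samples, and *Jag1* 37.1% to 41.2% and 37.4% to 38.5%. The sum of the ligands itself was 71.0 ± 5.41 FPKM (SD, n = 3) in control and 69.1 ± 3.31 in mutant samples, which overlapped. The log2 ratio of *Jag1* to *Jag2* was -0.18 ± 0.156 (SD, n = 3) in control and 0.0078 ± 0.109 in mutant samples, a difference of 0.19 with overlapping groups and an exact two-sided permutation p of 0.2, adjusted 0.3.

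**Figure D2:**
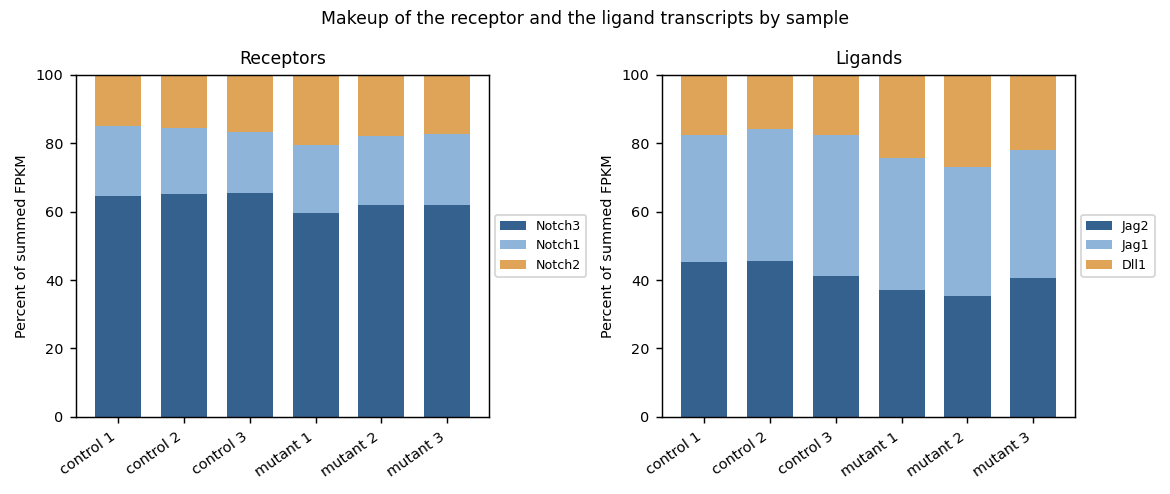
Share of each gene (y axis, percent of the summed FPKM) among the 3 receptors and among the 3 ligands, with a stacked bar for each control and mutant sample. *Notch3* is the largest part of the receptors in each sample, and the *Dll1* part is larger in each mutant sample (22.0% to 27.0%) than in each control sample (15.9% to 17.7%).

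*Rbpj* encodes the DNA-binding partner of the freed receptor. *Rbpj* (gene 19664, chromosome 5 from 53466115 to 53657445) measured 11.2, 11.9 and 11.0 FPKM in control samples 1, 2 and 3 and 8.45, 9.88 and 10.6 FPKM in mutant samples 1, 2 and 3. Each mutant sample lay below each control sample. With *Notch3*, it is 1 of 2 members of this kind, where 15.2% of all tested genes had each mutant sample below each control sample. The mean was 11.3 ± 0.488 FPKM (SD, n = 3) in control and 9.65 ± 1.11 in mutant mice, and the log2 fold change was -0.26 (standard error 0.080, 95% interval -0.44 to -0.08), with an unadjusted p of 0.0104 and an edgeR adjusted p of 0.0669. *Rbpj* shares reads with other genes, the pseudogene Rbpj-ps3 first among them: 10.6% of the stretches of 50 bases in its transcripts occur in other genes, a share that was 16.1% for *Dll1*, 9.11% for *Notch1* and at most 4.93% for each of the others.

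*Numb* encodes an adaptor that promotes the uptake of Notch from the membrane. *Numb* (gene 18222, chromosome 12 from 83794034 to 83921934) measured 26.1, 26.5 and 26.2 FPKM in control samples 1, 2 and 3 and 24.3, 25.7 and 26.9 FPKM in mutant samples 1, 2 and 3. The mutant samples lay on both sides of the narrow control range. The log2 fold change was -0.03 (standard error 0.069, 95% interval -0.18 to 0.13, edgeR adjusted p = 0.829).

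*Hes1* and *Hey1* are direct targets of RBPJ and the freed receptor in many tissues. *Hes1* (gene 15205, chromosome 16 from 30065357 to 30067796) measured 127, 121 and 105 FPKM in control samples 1, 2 and 3 and 113, 115 and 105 FPKM in mutant samples 1, 2 and 3. The mutant samples all lay inside the control range. The mean was 118 ± 11.4 FPKM (SD, n = 3) in control and 111 ± 5.30 in mutant mice, and the log2 fold change was -0.08 (standard error 0.086, 95% interval -0.27 to 0.12, edgeR adjusted p = 0.612). *Hey1* (gene 15213, chromosome 3 from 8663359 to 8667038) had 0, 2 and 1 expected counts among the controls and 0, 0 and 0 among the mutants, at or under 3 counts in each, so it was not tested and no fold is given. The planned ratio of *Hes1* to *Hey1* could not be computed for the same reason.

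The other genes of the pathway were read from 6 lists of 57 genes, of which 56 were in the table and 43 passed the filter. Of these 43 genes, 9 were called, 6 as higher and 3 as lower in the mutant samples, which is 20.9% of them beside 13.2% of all tested genes. Their median log2 fold change was 0.04. At the thresholds of the study 0 were called. The 6 lists were chosen with earlier results of these data known, so the shares are no test of them. Of the KEGG list of Notch signaling without the members, chosen after the data were seen, 5 of 34 tested genes were called (14.7%). For the 6 lists the number called fell from 9 to 4 without control sample 2, to 5 without control sample 3 and to 4 without mutant sample 2.

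The receptors are modified with sugars and cut before they reach the membrane. Of 5 tested genes of these steps 3 were called, where 13.2% of all tested genes were called. *Pofut1* and *Poglut1* were not called. *Lfng*, a fringe enzyme that adds sugars to the receptor, fell from 6.45, 7.39 and 7.60 FPKM among the controls to 4.38, 4.61 and 4.86 FPKM among the mutants (log2 fold change -0.63, standard error 0.109, edgeR adjusted p = 0.00498). *Rfng*, another fringe enzyme, rose from 26.9, 24.3 and 25.4 to 30.9, 31.7 and 34.6 FPKM (log2 fold change 0.32, standard error 0.076, edgeR adjusted p = 0.0225). The fringe enzymes so moved in opposite directions, and the third, *Mfng*, was at or under 1 count in each sample. *Furin*, the protease that makes the first cut, rose from 19.0, 18.5 and 19.0 to 24.8, 25.7 and 29.9 FPKM (log2 fold change 0.51, standard error 0.082, edgeR adjusted p = 0.00357). None of these 3 genes overlapped between genotypes. Of all tested genes, 17.5% had each mutant sample above each control sample and 15.2% had each below. The adjusted p of *Rfng* was 0.0926 without control sample 2, 0.0710 without control sample 3, 0.0542 without mutant sample 2 and 0.0610 without mutant sample 3, while *Lfng* and *Furin* were called at an adjusted p under 0.05 in each of 14 alternative fits.

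Of the 9 genes for the sheddases and gamma-secretase, 2 were called, both as higher, where 13.2% of all tested genes were called and 7.82% as higher. The sheddase gene *Adam10* had 23.1, 22.7 and 20.8 FPKM among the controls and 30.2, 27.9 and 26.4 among the mutants (log2 fold change 0.34, standard error 0.081, edgeR adjusted p = 0.0218). *Adam17*, the gene of a related sheddase, had 20.7, 20.9 and 19.8 FPKM and 28.0, 25.3 and 23.9 FPKM (log2 fold change 0.33, standard error 0.083, edgeR adjusted p = 0.0292). For both genes each mutant sample lay above each control sample, as for 17.5% of all tested genes, with mutant sample 1 the highest. Leaving out control sample 1, 2 or 3 or mutant sample 2 gave adjusted p-values of 0.0588, 0.0720, 0.0960 and 0.0642 for *Adam10* and of 0.0878, 0.0914, 0.105 and 0.0735 for *Adam17*. The 7 genes of gamma-secretase subunits, *Ncstn* among them, were not called, with log2 fold changes from -0.09 (*Aph1a*) to 0.19 (*Aph1b*).

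Of 11 tested genes of ligand and receptor trafficking and turnover, 3 were called, where 13.2% of all tested genes were called. *Fbxw7*, the subunit of a ubiquitin ligase that marks the freed receptor for degradation, rose from 6.32, 5.70 and 5.69 FPKM to 12.2, 9.10 and 9.81 FPKM (log2 fold change 0.72, standard error 0.098, edgeR adjusted p = 0.00138). *Mib2*, a ubiquitin ligase of the ligands, fell from 10.2, 11.0 and 9.66 FPKM to 5.87, 7.78 and 6.38 FPKM (log2 fold change -0.66, standard error 0.104, edgeR adjusted p = 0.00312). Its relative *Mib1* was not called, with 7.38 ± 0.471 FPKM (SD, n = 3) in control and 7.21 ± 0.468 in mutant mice. *Dtx4*, a Deltex ubiquitin ligase, rose from 0.57, 0.28 and 0.21 FPKM to 1.04, 0.99 and 0.67 FPKM (log2 fold change 1.35, standard error 0.326, edgeR adjusted p = 0.0248). *Dtx4* was scarce, at 22.1 to 103 expected counts per sample, and its adjusted p was 0.111 without control sample 2, 0.0884 without control sample 3 and 0.0743 without mutant sample 2. On the log2(FPKM + 1) scale of limma, which understates changes of scarce genes, its log2 fold change was 0.49.

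Of the nuclear cofactors, 15 were tested and 0 were called by edgeR, with 0 at an unadjusted p under 0.05 and 0 called by DESeq2 or limma. Their log2 fold changes ran from -0.24 (*Maml3*) to 0.13 (*Maml1*), with *Maml1*, *Maml2* and *Maml3* being coactivators that join the freed receptor and RBPJ. Of the other receptors and ligands, *Dlk2* was tested and not called, and *Notch4*, *Dll3*, *Dll4*, *Dlk1* and *Dner* did not pass the filter. A further list of 8 genes held *Nrarp* and relatives of *Hes1* and *Hey1*, and whether each of them answers to Notch in the cornea was not tested. Of these, *Hes2*, *Hes3*, *Hes5*, *Hes7* and *Hey2* did not pass the filter either, and *Heyl* was not analysed here. *Hes6*, a relative of *Hes1* that is known to oppose it, fell from 8.59, 9.53 and 9.93 FPKM to 7.07, 6.62 and 6.49 FPKM, with no overlap (log2 fold change -0.48, standard error 0.115, edgeR adjusted p = 0.0242). Its adjusted p was 0.0812 without control sample 2, 0.0918 without control sample 3, 0.0674 without mutant sample 2 and 0.0663 without mutant sample 3. *Nrarp*, a feedback inhibitor that Notch is known to turn on, had 42.5, 38.2 and 33.1 FPKM among the controls and 27.9, 31.5 and 32.2 FPKM among the mutants. Each mutant sample lay below each control sample, and edgeR gave a difference of -0.32 on the log2 scale (standard error 0.096, adjusted p = 0.0592). DESeq2 called both tested genes of this list, *Hes6* and *Nrarp*, as lower, where it called 753 of all 12667 tested genes as lower. Each mutant sample lay below each control sample for 15.2% of all tested genes, as for *Hes6* and *Nrarp*.

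**Figure D3:**
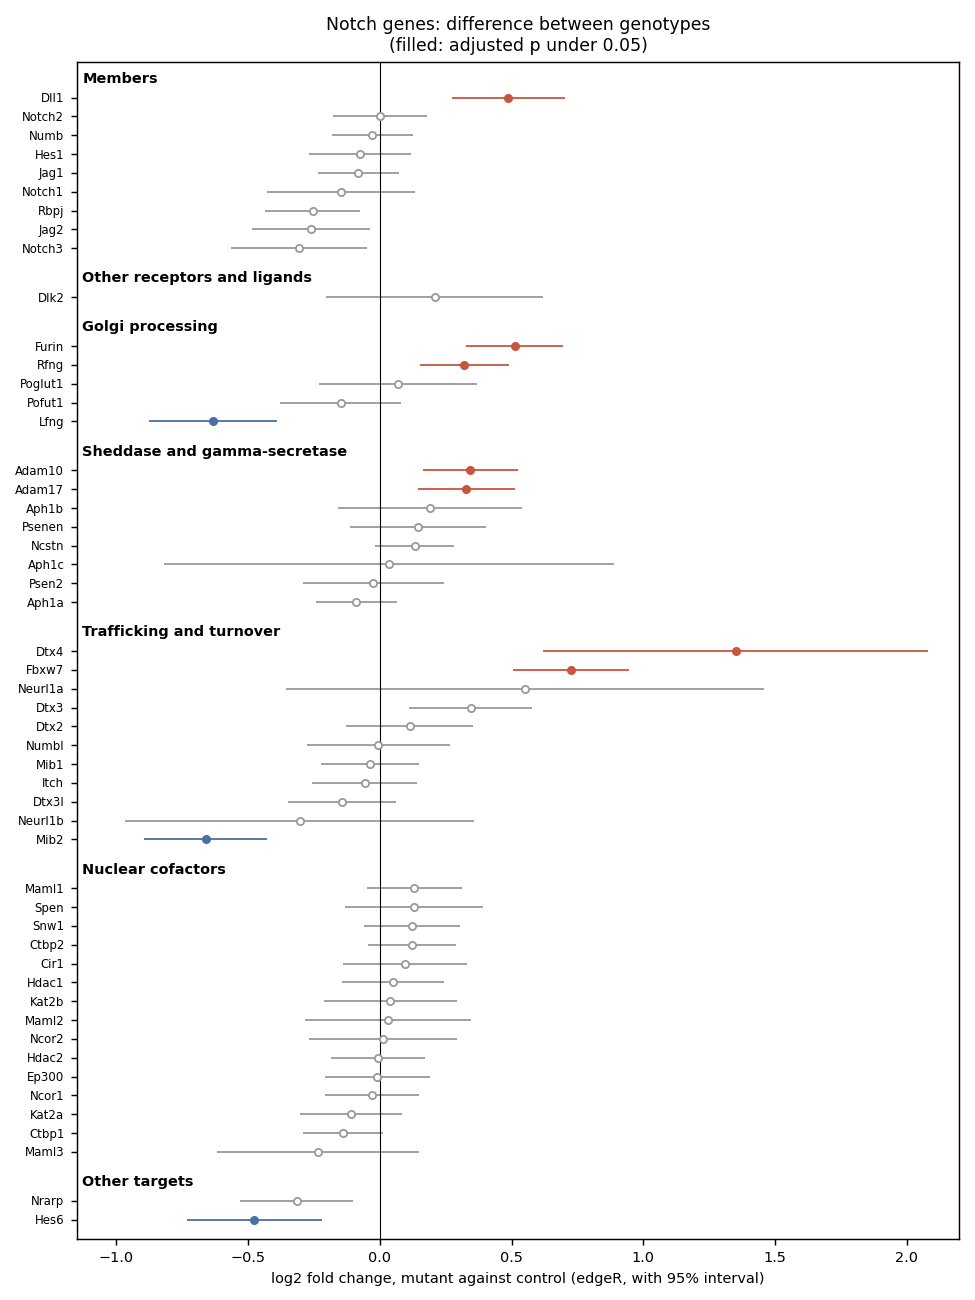
Log2 fold change of mutant against control samples (x axis) from edgeR with its 95% interval, for the 9 tested members and 42 tested genes of the other pathway lists (y axis, grouped by step). Filled points have an adjusted p under 0.05, red higher and blue lower in mutant samples: *Dll1* at 0.49 among the members and 9 genes among the others, from *Mib2* at -0.66 to *Dtx4* at 1.35.

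Genes that are known to lie downstream of Notch, or to change when *Notch1* is lost, in stratified epithelium were read as a further list. All 8 were tested, 4 rose and 0 fell, where 7.82% of all tested genes were called higher and 5.42% lower, and DESeq2 and limma gave the same numbers for the list. The list was chosen with earlier results of these data known, so these shares are no test of it. It joins genes downstream of Notch with genes that change when *Notch1* is lost, so the count gives no direction for Notch. *Tslp*, an epithelial cytokine, had 0.46 FPKM in each control sample and 1.89, 1.28 and 2.36 in the mutant samples (log2 fold change 1.99, standard error 0.312, edgeR adjusted p = 0.00302). It was scarce, at 10 expected counts in each control sample. *Ivl*, which encodes the cornified envelope protein involucrin, had 6.42, 2.96 and 4.84 FPKM and 10.2, 8.13 and 11.6 FPKM (log2 fold change 1.07, standard error 0.237, edgeR adjusted p = 0.0168). Neither gene overlapped between genotypes, where 17.5% of all tested genes had each mutant sample above each control sample. *Ivl* was not called without control sample 3 (adjusted p = 0.0600 in edgeR).

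Another 4 genes of that list were not called. The cell cycle inhibitor *Cdkn1a* had a mean of 125 ± 11.3 FPKM (SD, n = 3) in control and 147 ± 16.0 in mutant mice (log2 fold change 0.23, edgeR adjusted p = 0.173), with overlapping groups. *Trp63*, the regulator of basal epithelial cells, had 75.4 ± 9.39 and 84.9 ± 12.2 FPKM (n = 3 each; log2 fold change 0.04, edgeR adjusted p = 0.820). The epidermal keratins *Krt1* and *Krt10* were low in both genotypes, with 2.55 ± 0.269 and 2.39 ± 0.326 FPKM for *Krt1* and 3.70 ± 0.374 and 3.18 ± 0.255 FPKM for *Krt10* (n = 3 each). Their log2 fold changes were -0.10 and -0.22.

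**Figure D4:**
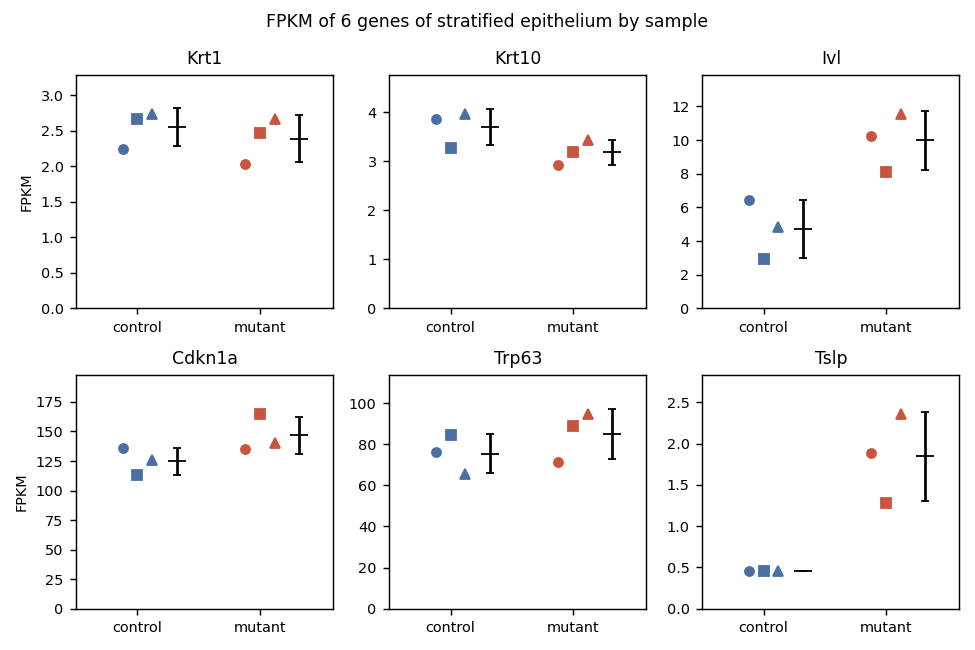
FPKM (y axis, linear, from 0) of 6 genes of stratified epithelium known to lie downstream of Notch or of *Notch1* loss, in each control and mutant sample. Symbols are samples 1, 2 and 3 and the bar is the mean with its SD (n = 3). *Tslp* and *Ivl* have each mutant sample above each control sample, and *Krt1*, *Krt10*, *Cdkn1a* and *Trp63* overlap.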

How the data were processed

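Bulk RNA-seq of the corneal epithelial layer was analysed for 3 control and 3 *Krt14-Cre; Rela f/f* mice, grouped by the genotype in the labels. The authors filtered single-end reads of 50 bases with SOAPnuke and, per the labels, used Bowtie2 2.2.5 and RSEM 1.2.12. They deposited 1 table of coding genes with expected counts per sample, neither normalized nor pooled, and with FPKM values, which RSEM scales by transcript length and sample total. The submitters' processing notes name the build mm9, but the coordinates in the table lie on GRCm38 sequences, which are printed here. Whether counting used strand is not given in the sources used here. Its columns of group means and of DEGseq fold changes, p-values and q-values were not used.

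Expected counts were rounded and tested with edgeR 4.0.16 in R 4.3.3 (TMM scaling, filterByExpr at its defaults of 10 counts and a total of 15, quasi-likelihood test of genotype), with Benjamini-Hochberg adjustment over 12667 genes. Standard errors were derived from the F statistic of the test, as the absolute log2 fold change divided by its root. Ratios within a sample were compared with exact permutation tests. Alternatives were DESeq2 1.42.0, its size factors in edgeR, the unfiltered table, a floor of 10 counts per sample, upper-quartile scaling, limma 3.58.1 on log2(FPKM + 1) and log2(FPKM + 0.1), the replicate number as a block, each sample left out in turn, and the thresholds of the study. A list of KEGG Notch genes was added after the data were seen.

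All members are named, with each called gene of the pathway lists, the genes of the list of stratified epithelium, and the 3 genes most like *Dll1*. *Heyl*, *Emcn* and *Des* were not analysed here, and values for a few listed genes are not given. The members and lists were chosen with earlier results of these data known. On simulated data for this comparison, with 12667 genes, edgeR called 66% of genes changed 1.5-fold, 86% at 2-fold, 100% at 4-fold and 98% at 8-fold, with 14 false calls. The simulation changed 50 genes at each fold, while 13.2% of the tested genes were called in the real data. Its shares therefore need not hold for the real data. Positions, overlaps and transcript lengths came from GENCODE M21 and promoters from RefSeq, GRCm38.p6. The length behind an expected count was computed from the count and the FPKM, calibrated on genes with a single transcript, and was added after the data were seen. Protein sequences were not used here.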

Additional observations from a re-analysis of the deposited data

How the results depend on the processing

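Of 126 alternative values for the 9 tested members, 116 kept their direction and their side of the threshold, 1 lost the call (*Dll1* without control sample 2, log2 fold change 0.46), 1 gained it (*Notch3* with DESeq2, log2 fold change -0.31) and 8 changed sign, all for *Notch2*, whose log2 fold change is close to 0. *Notch2* had a log2 fold change of 0.00067 with DESeq2, 0.00066 with its size factors, 0.0047 with at least 10 counts in every sample, 0.0032 and 0.0035 with limma on log2(FPKM + 1) and log2(FPKM + 0.1), 0.0012 with the replicate block, and -0.045 to 0.061 with a sample left out, 0.031 of it without mutant sample 1. The number of members called was 2 with DESeq2, 0 at the thresholds of the study and 0 to 1 with a sample left out. The number of other pathway genes called was 0 at the thresholds of the study, 5 in the KEGG list and 4 to 9 with a sample left out. The calls over all tested genes numbered 1678, and 173 at the stricter thresholds that the study used and 857 to 1869 with a sample left out, the lowest counts being without control samples 2 (857) and 3 (999). Fewer samples entered those fits. The log2 fold change of *Rela* stayed between -2.78 and -2.49.

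Same-numbered samples did not deviate together (correlations of 0.019, 0.048 and -0.046 over all tested genes, against -0.077 to 0.064 for samples of different number). No pairing by number was seen, but 3 samples per genotype are too few to tell whether the numbers pair the samples. With the replicate block 1 member was still called, and of the other pathway genes *Hes6* lost its call (adjusted p = 0.0535). Depth limits *Hey1* and the scarce pathway genes, and 3 samples per genotype limit the rest.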

Other observations

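Within each genotype some members had their lowest value in the same sample. *Notch1*, *Notch3* and *Jag2* were lowest in control sample 3 among the controls and in mutant sample 1 among the mutants. *Notch2*, *Jag1*, *Rbpj* and *Numb* were also lowest in mutant sample 1, while *Dll1* and *Hes1* were lowest in mutant sample 3. Without mutant sample 1 the log2 fold change was -0.036 for *Notch1*, -0.19 for *Notch3*, -0.19 for *Rbpj* and -0.0016 for *Numb*. In that fit *Jag1* had -0.063, *Jag2* -0.22, *Hes1* -0.093, *Notch2* 0.031 and *Dll1* 0.52. For *Notch1* the log2 CPM of control sample 3 lay 0.23 below the group mean and that of mutant sample 1 lay 0.24 below it, both larger in size than the log2 fold change of *Notch1* between genotypes.

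Among 12591 tested genes outside the lists, those whose log2 CPM followed *Dll1* most closely over the 6 samples were *Dusp8* (Pearson r = 0.992), *Nrf1* (r = 0.990) and *Slc7a8* (r = 0.989), with no p because the samples share their genotype groups. *Dusp8*, a MAP kinase phosphatase gene, was scarce, with 0.04 to 0.11 FPKM in control and 0.30 to 0.69 in mutant samples (log2 fold change 2.67, edgeR adjusted p = 0.00465). *Slc7a8*, which encodes an amino acid transporter, had 3.95 to 5.20 and 6.79 to 8.41 FPKM (log2 fold change 0.72, edgeR adjusted p = 0.00836). *Nrf1*, which encodes a regulator of mitochondrial genes, had 7.47 to 8.14 and 8.87 to 9.85 FPKM and was not called (log2 fold change 0.17, edgeR adjusted p = 0.184).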
